A study of Homo sapiens with 21 samples.

Results

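The regions described here are 6064 sites in 3'UTRs, the stretches of an mRNA between the stop codon and the poly(A) tail, at which HNRNPK PAR-CLIP clusters were listed in the cytoplasm of *KRT19* KO cells and not in the cytoplasm of parental cells. They were selected on the cytoplasmic clusters themselves. A site had to be annotated as 3'UTR in the deposited list, hold at least 20 reads in the *KRT19* KO cytoplasm, share no nucleotide on its strand with a parental cytoplasmic cluster of any size, and lie in a gene with at least 1 parental cytoplasmic cluster. They are called KRT19 KO-only sites below, which states how they were chosen and does not show that HNRNPK was absent from them in parental cells. They lay in 3180 genes and were chosen from 177530 clusters of that library, of which 28448 were in 3'UTRs and 14100 of these held at least 20 reads. Another 7911 of the 14100 sites overlapped a parental cytoplasmic cluster and are called shared, and 125 had no counterpart and lay in genes without any parental cytoplasmic cluster. The mirror set, called parental-only, held 2613 of the 9660 3'UTR sites of at least 20 reads in the parental cytoplasm.

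The material came from MDA-MB-231, a widely used cell line of triple-negative breast cancer, and from its derivative in which *KRT19*, the gene of the intermediate filament protein keratin 19 (K19), was disrupted with CRISPR/Cas9. Both were grown with 4-thiouridine (4SU), irradiated with long-wave ultraviolet light and fractionated, and RNA was recovered with an antibody labelled as recognising HNRNPK and HNRNPJ. The 4 libraries were the cytoplasm and the nucleus of parental cells and of *KRT19* KO cells, with 1 library of each condition, so that differences between conditions could not be set against replicates and were not tested. Whether the *KRT19* KO line was 1 clone is not given in the sources used here. Reads in clusters numbered 6216226 in the *KRT19* KO cytoplasm, 5551612 in the parental cytoplasm, 3252800 in the *KRT19* KO nucleus and 3537577 in the parental nucleus. The 3'UTR share of those reads was 47.4% in the *KRT19* KO cytoplasm, 31.6% in the parental cytoplasm, 5.43% in the *KRT19* KO nucleus and 5.35% in the parental nucleus. *KRT19* itself had 1 cluster in each cytoplasmic library and none in either nuclear library, too few to check the genotype here. *VIM* and *CD44*, which this mesenchymal-like line is known to express, had 10 and 61 clusters in the *KRT19* KO cytoplasm and 9 and 72 in the parental cytoplasm. The epithelial genes *EPCAM*, *KRT8* and *KRT18* had 1, 13 and 4 in the former and 3, 17 and 3 in the latter. Of the receptor genes that a triple-negative tumour does not express as protein, *PGR* had 0 clusters in all 4 libraries, *ESR1* had 2 and 10 in the *KRT19* KO and parental cytoplasm and 6 and 9 in the nuclei, and *ERBB2* had 0 in the cytoplasms and 5 and 4 in the nuclei. Clusters report bound RNA and were not read as expression levels, and since mRNA levels were not analysed here, more mRNA and more HNRNPK per mRNA at a site were not told apart. The parental cytoplasmic list was the only one of the 4 without clusters on unplaced sequences, and whether its reference or its cluster calling differed was not tested, so "no parental cytoplasmic cluster" below means only that none is listed.

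HNRNPK is a protein with 3 KH domains, folds that hold single-stranded nucleic acid, and it prefers stretches of C. It moves between nucleus and cytoplasm, takes part in splicing and transcription in the former, and acts on the stability and translation of mRNAs through 3'UTRs in the latter. In PAR-CLIP, 4SU crosslinked to a protein appears as C where the gene has T, so that reads with a T-to-C change mark the contact. RNase T1, used to trim the RNA, cuts after G. A cluster is a run of overlapping reads with enough such changes to be called, and in these files no cluster held fewer than 5 reads.

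Sequences around the mode, the position scored highest by the cluster caller, are given for the 12 KRT19 KO-only sites with the most reads, 1 per gene. They are also given for 2 further sites among the leading 4 seen in only 1 nuclear library. The genes of all these sites are named below. Each run is 5' to 3' on the transcript strand, with T for U, from the deposited cluster at hg19 (GRCh37) coordinates. Capitals mark a word of 5 nt made of CCC preceded by T, C or A, with T or A before that, which is the consensus of the study's sequence logo for HNRNPK.
PAWR, chr12:79985465-79985494, minus strand: aaacaatatgtaagcagaaatagtactaaa
IL6ST, chr5:55234567-55234596, minus strand: ataaattataaaactttttacattcaaaat
NR3C1, chr5:142660298-142660327, minus strand: tctaatatggcaaaaatggctagacaccca
MAPK1IP1L, chr14:55531720-55531749, plus strand: tttctataatcactTTCCCCttctaaataa
RACGAP1, chr12:50383880-50383909, minus strand: ttattaaaactatatatatcTCCCCttcct
SSR1, chr6:7289408-7289437, minus strand: atatgaaacctaatccTACCCCctttttta
NRAS, chr1:115249774-115249803, minus strand: ttttttcataggttactacctatacaatgt
SYNCRIP, chr6:86322256-86322285, minus strand: ctaagtagatttTTCCCCttttttaaatta
CNN2, chr19:1038322-1038351, plus strand: ccaggggtggggcaaggacagtggagagag
SRSF1, chr17:56082224-56082253, minus strand: aaattggcagtattgaccttatactaaaag
CSNK2A1, chr20:464322-464351, minus strand: catggacaaatttttttttcTCCCCtccca
CDK6, chr7:92239885-92239914, minus strand: aattcacAACCCaattttaatacATCCCta
DIDO1, chr20:61510374-61510403, minus strand: taaaaaaactaaactttaatatttccattt
CBX5, chr12:54635444-54635473, minus strand: ttcTACCCACCCCtttctatcctaaacaca

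The word was in the window of 7 of these 14 sites. The windows of *PAWR*, *NRAS*, *SRSF1* and *DIDO1* lacked it and so did their whole clusters. The clusters of *IL6ST*, *NR3C1* and *CNN2* held it outside the window shown. The *CNN2* window was rich in G, whereas those of *SYNCRIP* and *CSNK2A1* held long runs of T next to the C-rich word.

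Most KRT19 KO-only sites were small and a few were very large. The median site held 42 reads (quartiles 27 and 92), and 57.3% of the sites had between 20 and 49 reads. Sites of at least 500 reads were 4.06% of the set, 246 sites in 218 genes, and held 41.6% of its reads. Together the 6064 sites held 731320 reads, 24.8% of the 3'UTR reads of the *KRT19* KO cytoplasm, and the 12 largest held 10.2% of these. Shared sites held a median of 83 reads (40 and 223). The parental-only sites held a median of 37 reads and 11.4% of the parental 3'UTR reads. A median KRT19 KO-only site rested on 21 unique reads and 6 positions with a conversion, and spanned 33 nt, against 41, 8 and 34 for shared sites. No KRT19 KO-only site rested on fewer than 4 unique reads.

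The rule has a minimum of 20 reads, and sites on either side of it were similar in unique reads, conversion positions and width. At 20 reads, 274 of 430 3'UTR clusters (63.7%) met the other criteria. Their medians were 10 unique reads, 3 conversion positions and 29 nt. At 19 reads, just outside, 282 of 410 (68.8%) met the other criteria, with medians of 9 unique reads, 3 positions and 29 nt. At 21 reads, 251 of 407 (61.7%) did so. The share of reads with a T-to-C change was 62.4% at 20 reads and 62.1% at 19 reads.

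Absence from the parental cytoplasm was common among all sites of this library, and less so among 3'UTR sites than among coding ones. Of the 14100 3'UTR sites of at least 20 reads, 43.9% had no parental cytoplasmic cluster, against 54.6% of 2408 coding sites and 40.8% of 16554 intronic sites. In the opposite direction, 30% of 9660 parental 3'UTR sites, 33.2% of 1042 coding sites and 48.4% of 25742 intronic sites had no cluster in the *KRT19* KO cytoplasm. These shares were part of the selection and are given as the background against which the set stands. For equal shares of 3'UTR reads, 20 reads in the *KRT19* KO cytoplasm correspond to 11.9 reads in the parental cytoplasm. The part of depth in the absences was not tested.

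The share without a counterpart fell as reads rose, in both directions. Among *KRT19* KO sites it was 58.1% (95% Wilson interval 56.8 to 59.3%) at 20 to 49 reads, 40.8% at 50 to 99, 32.5% from 100 and below 200, 27.8% from 200 and below 500 and 21.5% (19.2 to 24.0%) at 500 reads or more. Among parental sites the same bins gave 40.4% (39.0 to 41.9%), 28.1%, 20.5%, 14.2% and 9.82% (7.76 to 12.3%). These intervals, and all those below, cover counting error only, since sites of 1 library share its cells and copies of a molecule are not independent. In every bin the *KRT19* KO share was the higher. The bins match raw reads, whereas 500 reads of the *KRT19* KO cytoplasm are the same share of 3'UTR reads as 298 of the parental one.

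**Figure D1:**
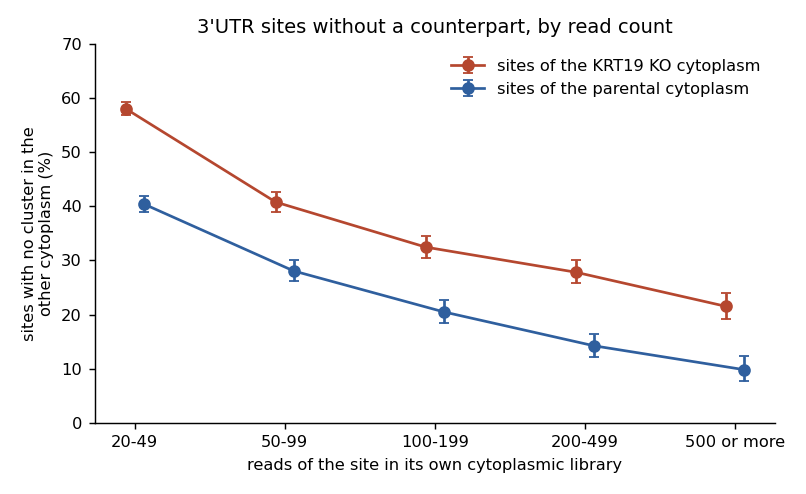
Share of 3'UTR sites with no cluster in the other cytoplasm (y axis, %) in 5 bins of the site's own reads (x axis), for sites of the KRT19 KO cytoplasm (red) and of the parental cytoplasm (blue), with 95% Wilson intervals as bars. Both lines fall, from 58.1% to 21.5% for KRT19 KO sites and from 40.4% to 9.82% for parental sites.

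Among sites of 500 reads or more, small parental cytoplasmic clusters were rarer than missing ones. Of 1153 such *KRT19* KO sites, 248 had no parental cytoplasmic cluster, and 246 of these are KRT19 KO-only sites. At the other 905 sites the parental cytoplasm held a median of 57.8% of the *KRT19* KO reads, with a 5th percentile of 22.1% and a 95th of 146%. Equal shares of 3'UTR reads would give 59.6%, so that on this scale the median was 97.0%. At shared parental sites of that size the *KRT19* KO cytoplasm held a median of 119.9% of the parental reads, where equal shares would give 168%. Among the 905 *KRT19* KO sites, parental cytoplasmic reads were up to 5% of the site's reads at only 2. At 5 sites they were over 5 to 10% and at 29 over 10 to 20%. At 315 sites they were over 20 to 50% and at 403 over 50 to 100%. Sites with few parental reads were thus far rarer than sites with no listed cluster. In the opposite direction 64 of 652 parental sites had no *KRT19* KO cluster, and none of the others had under 20% of its reads there. None of the 248 and none of the 64 sites overlapped a cluster on the opposite strand of the other cytoplasm.

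**Figure D2:**
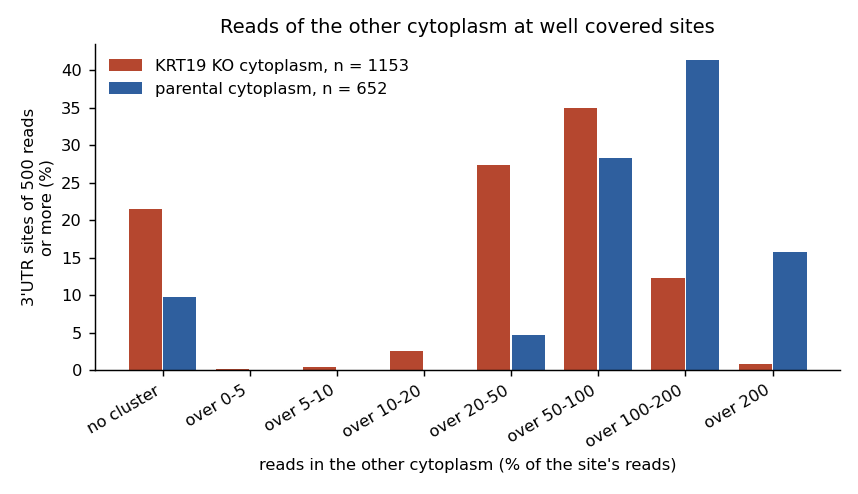
Share of the 3'UTR sites of 500 reads or more (y axis, %) by the reads of the other cytoplasm as a percentage of the site's own reads (x axis), for 1153 sites of the KRT19 KO cytoplasm (red) and 652 of the parental cytoplasm (blue). The bars at no cluster, 21.5% and 9.82%, are separated from the main mass above 20% by classes of 2, 5 and 29 KRT19 KO sites and by no parental site.

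Many large KRT19 KO-only sites had shared sites nearby. Of the 246 sites of at least 500 reads, 173 had a shared site within 500 nt on the same strand. At those neighbours, which have a parental cluster by definition, the parental cytoplasm held a median of 56.5% (quartiles 35.7 and 84.4%) of the *KRT19* KO reads, near the 57.8% over all large shared sites, and under 10% beside 1 of the 173 sites. A parental cytoplasmic cluster lay within 10 nt of 20 of the 246 sites and within 50 nt of 73, and no parental cluster lay within 500 nt of 24. Within 200 nt, 184 of the 246 had a parental cytoplasmic cluster. Of 47 parental-only sites of that size, 29 had a *KRT19* KO cytoplasmic cluster within 200 nt. The counts at 10, 50 and 500 nt were not made for other large sites, so nearness is given as a description only. Each of the 246 rested on at least 181 unique reads, and the lowest share of reads with a T-to-C change among them was 30.9%.

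*PAWR*, which encodes a pro-apoptotic leucine zipper protein (ENSG00000177425, chromosome 12, 79968759 to 80084744), had the largest KRT19 KO-only site, 96 nt long and 908 nt after the stop codon. It held 14554 reads in the *KRT19* KO cytoplasm, no cluster in the parental cytoplasm, no cluster in the *KRT19* KO nucleus and 352 reads in the parental nucleus. The line without a cytoplasmic cluster thus had a nuclear one at this site, and the line with the cytoplasmic cluster had none in the nucleus. Around it, 3 clusters of 3008, 646 and 882 reads in the *KRT19* KO cytoplasm faced 1934, 658 and 315 reads in the parental cytoplasm. Outside its KRT19 KO-only sites, the 3'UTR of *PAWR* held 14938 reads in the *KRT19* KO cytoplasm and 9458 in the parental cytoplasm, 1.58 times as many, where all 3'UTRs together, the chosen sites included, had 1.68 times as many.

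*IL6ST* encodes gp130, the receptor subunit shared by cytokines of the interleukin 6 family, and lies on chromosome 5 from 55230923 to 55290850. Its site of 61 nt lay 2322 nt after the stop codon and held 10440 reads in the *KRT19* KO cytoplasm, no parental cytoplasmic cluster, 187 reads in the *KRT19* KO nucleus and 227 in the parental nucleus. Both nuclei listed the site. A cluster at positions -380 to -287 from the mode held 6953 reads in the *KRT19* KO cytoplasm and 7827 in the parental cytoplasm, which on equal shares of 3'UTR reads is higher in the latter. A smaller one at -153 to -119 held 389 reads in the *KRT19* KO cytoplasm, and the parental cytoplasm had no cluster there.

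*NR3C1*, the gene of the glucocorticoid receptor, lies on chromosome 5 from 142657496 to 142815077. Its site of 104 nt held 10200 reads in the *KRT19* KO cytoplasm, no parental cytoplasmic cluster, 213 reads in the *KRT19* KO nucleus and no cluster in the parental nucleus. Here both fractions of the *KRT19* KO line listed the site and neither fraction of the parental line did. The rest of this 3'UTR was thinly covered in both cytoplasms within 400 nt, where a cluster of 333 reads in the *KRT19* KO cytoplasm faced 69 parental reads, and one of 141 reads in the parental cytoplasm faced 21 *KRT19* KO reads.

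**Figure D3:**
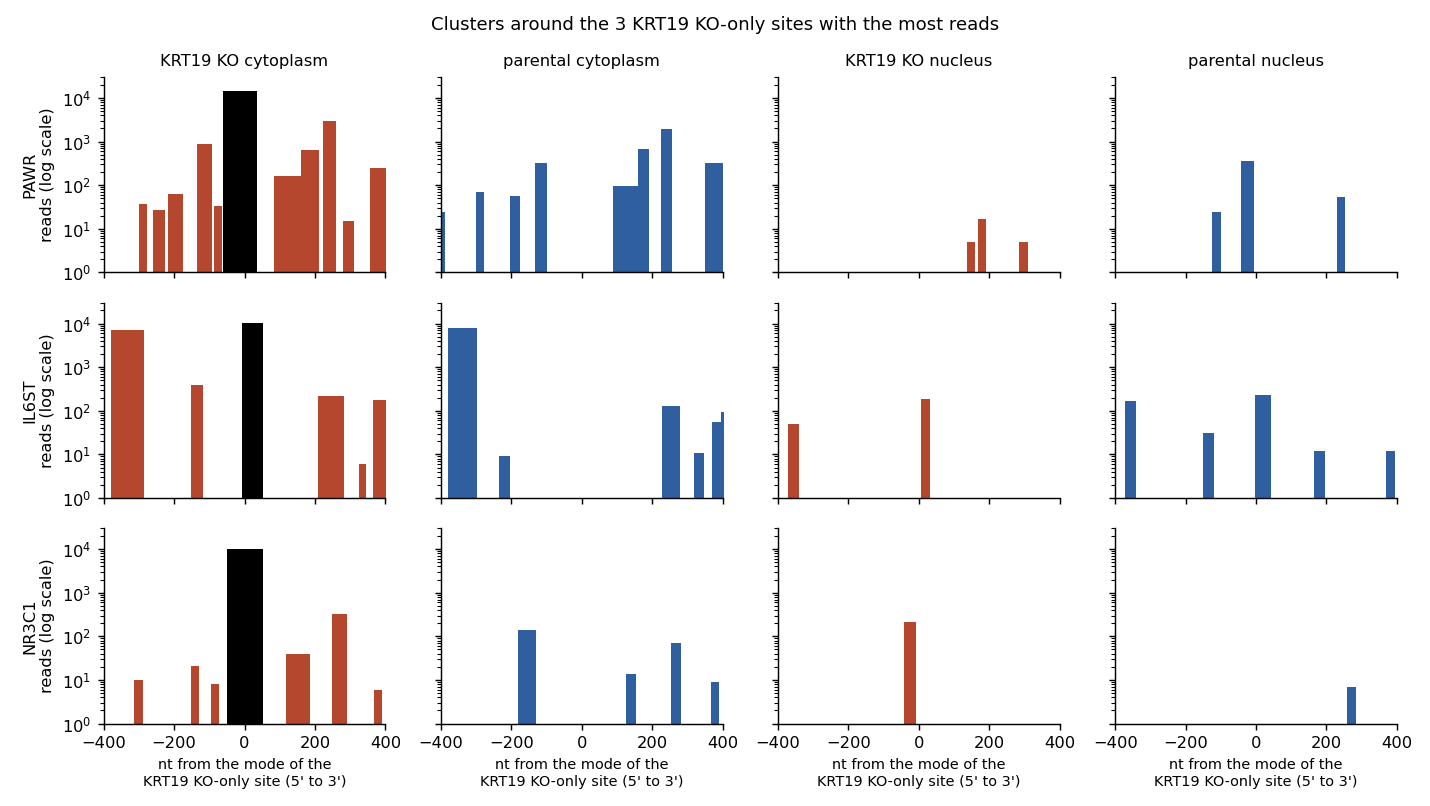
Clusters within 400 nt of the mode of the KRT19 KO-only site (x axis, nt, 5' to 3') in PAWR, IL6ST and NR3C1 (rows) and in the 4 libraries (columns), each cluster drawn as a bar over its extent with its reads as height (log axis from 1). The KRT19 KO-only sites, in black, reach 14554, 10440 and 10200 reads, and the parental cytoplasm has a gap there between its own clusters, while the parental nucleus lists the PAWR and IL6ST sites with 352 and 227 reads.

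Among the other large sites, *MAPK1IP1L* had 7088 reads at its site in the *KRT19* KO cytoplasm, 150 in the *KRT19* KO nucleus and no cluster in either parental library. Outside its KRT19 KO-only sites its 3'UTR held 927 reads in the *KRT19* KO cytoplasm and 716 in the parental one. *RACGAP1*, which encodes a GTPase activating protein of the central spindle in cytokinesis, had 6598 reads in the *KRT19* KO cytoplasm, 400 in the *KRT19* KO nucleus and 946 in the parental nucleus. Its parental nuclear cluster was thus larger than the *KRT19* KO nuclear one. The *KRT19* KO cytoplasm had no other reads in this 3'UTR than those of its 2 KRT19 KO-only sites, while the parental cytoplasm held 134 reads elsewhere in it.

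*SSR1*, which encodes a subunit of the translocon-associated complex of the endoplasmic reticulum, had 5885 reads at its site in the *KRT19* KO cytoplasm, where none of the other 3 libraries listed a cluster. Elsewhere in its 3'UTR the parental cytoplasm held 1572 reads in 23 clusters. *NRAS*, the gene of a small GTPase of growth factor signalling, had 4748 reads in the *KRT19* KO cytoplasm, 16 in the *KRT19* KO nucleus and 55 in the parental nucleus. *SYNCRIP*, the gene of an hnRNP protein, had 3448 reads in the *KRT19* KO cytoplasm, 43 in the *KRT19* KO nucleus and 79 in the parental nucleus. The *NRAS* and *SYNCRIP* sites were thus listed in both nuclei, as that of *IL6ST* was. *CNN2*, the gene of the actin-binding protein calponin 2, had 3407 reads in the *KRT19* KO cytoplasm and 48 in the parental nucleus only. *CSNK2A1*, which encodes a catalytic subunit of casein kinase 2, had 2758 reads in the *KRT19* KO cytoplasm and 131 in the *KRT19* KO nucleus only. *DIDO1* had 2351 reads in the *KRT19* KO cytoplasm and 186 in the *KRT19* KO nucleus only.

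A few large sites lay directly beside a parental cluster. The site of 2797 reads in *SRSF1*, the gene of an SR splicing factor, was 8 nt from a parental cytoplasmic cluster of 1005 reads. That of 2352 reads in *CDK6*, the gene of a kinase of the G1 phase, was 2 nt from one of 1321 reads, and a site of 867 reads in *RAB7A*, the gene of a late endosomal GTPase, was 1 nt from one of 3484 reads. These sites count as KRT19 KO-only because the rule asks for an overlap of at least 1 nt. Whether the borders drawn by the cluster caller split a common site here was not tested. Over the whole set, a parental cytoplasmic cluster lay within 10 nt of 3.88% of sites, within 50 nt of 19.9% and within 200 nt of 52.2%, and the median distance was 187.5 nt (quartiles 67 and 470). From parental-only sites to *KRT19* KO cytoplasmic clusters, these values were 4.44%, 24.2%, 58.0% and 152 nt (53 and 414).

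The nuclear libraries were not used to choose the sites. A cluster of the *KRT19* KO nucleus overlapped 17.7% (16.7 to 18.7%) of the KRT19 KO-only sites and a cluster of the parental nucleus 16.6% (15.6 to 17.5%). Over all 14100 sites these shares were 24.8% and 23.4%, and shared sites had 30.4% (29.4 to 31.4%) and 28.8% (27.8 to 29.8%). The KRT19 KO-only sites were listed less often in both nuclei, and the nucleus of the line they were chosen in did not stand out. In the parental-only set, 16.7% (15.3 to 18.2%) had a cluster in the *KRT19* KO nucleus and 17.9% (16.5 to 19.5%) in the parental nucleus. Among sites of 20 to 49 reads, the shares were 10.4% and 10.1% for KRT19 KO-only sites, 14.0% and 14.1% for shared sites, and 11.6% and 13.6% for parental-only sites, in the *KRT19* KO and the parental nucleus. Shared sites of the parental cytoplasm, the counterpart of the parental-only set, had 19.1% and 16.7% in that range and 32.7% and 31.8% over all sites. In each of the 5 read bins, *KRT19* KO cytoplasmic sites without a parental cluster were listed in the *KRT19* KO nucleus less often than those with one, from 10.6% against 14.0% in the lowest bin to 53.6% against 62.2% in the highest.

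**Figure D4:**
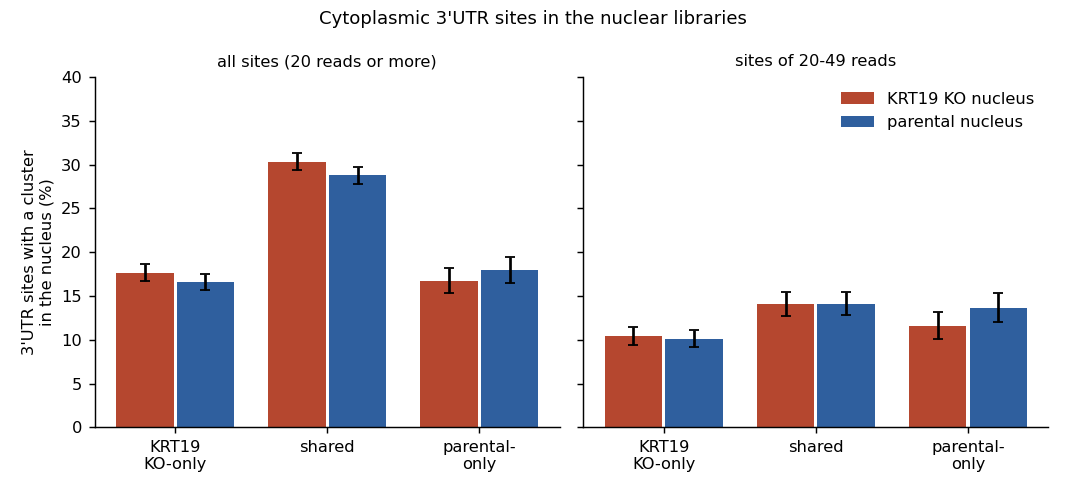
Share of cytoplasmic 3'UTR sites with a cluster in the KRT19 KO nucleus (red) and the parental nucleus (blue) (y axis, %), with 95% Wilson intervals as bars, for KRT19 KO-only, shared (sites of the KRT19 KO cytoplasm) and parental-only sites, over all sites of 20 reads or more (left) and over those of 20 to 49 reads (right). The KRT19 KO-only bars are at 17.7% and 16.6% on the left and at 10.4% and 10.1% on the right, below the shared bars in both nuclei.

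Of the 6064 sites, 348 had a cluster in both nuclei, 724 in the *KRT19* KO nucleus only, 656 in the parental nucleus only and 4336 in neither. Among the sites in 1 nucleus only, 52.5% (49.8 to 55.1%) were in the *KRT19* KO nucleus, against 52.6% (50.6 to 54.5%) of shared and 47.4% (43.5 to 51.4%) of parental-only sites. In all, 1004 KRT19 KO-only sites had a cluster in the nucleus of parental cells. At the 348 sites in both nuclei, the median log2 ratio of *KRT19* KO to parental nuclear reads, each divided by the reads in clusters of its library, was 0.12 (quartiles -0.75 and 0.92), and 182 of them were higher in the *KRT19* KO nucleus. For shared sites the median was 0.01 over 1114 sites. Among the 246 sites of at least 500 reads, 132 had a cluster in the *KRT19* KO nucleus, 117 in the parental nucleus and 179 in at least 1 of them. Their shares were 53.7% (47.4 to 59.8%) and 47.6% (41.4 to 53.8%), against 62.2% (59.0 to 65.3%) and 61.9% (58.7 to 65.0%) of shared sites of that size. The intervals did not overlap for the parental nucleus and overlapped slightly for the *KRT19* KO nucleus.

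Crosslinked reads were present throughout the set, in a slightly smaller share than at shared sites. A T-to-C change was carried by 52.6% (52.5 to 52.7%) of the reads of KRT19 KO-only sites, by 54.7% (54.6 to 54.8%) of those of shared sites in the same library, and in the parental cytoplasm by 50.3% (50.1 to 50.5%) of those of parental-only and 51.7% (51.6 to 51.8%) of those of shared sites. At 20 to 49 reads the median share per site was 60.5% for *KRT19* KO sites without a parental cluster and 62.5% for those with one. In the parental cytoplasm the medians without and with a *KRT19* KO cluster were 58.1% and 60.7% in that range. They were 49.3% and 55.4% from 100 and below 200 reads and 46.1% and 49.8% at 500 reads or more. At 500 reads or more the median share per site was 49.6% (quartiles 42.9 and 55.2%) for KRT19 KO-only sites and 54.3% (48.5 and 60.7%) for shared ones. Split by their T-to-C share into quartiles of 288 or 289 sites, 34.9% (29.7 to 40.6%) of those in the lowest quartile, 24.7% and 16.0% in the next ones and 10.4% (7.39 to 14.5%) in the highest quartile had no parental cytoplasmic cluster. Parental sites of that size showed 13.5% (9.09 to 19.6%) in each of the lower quartiles, then 5.52% and 6.75% (3.81 to 11.7%). At 20 to 49 reads the *KRT19* KO quartiles ran from 63.6% to 54.6%. The share of converted reads enters the calling of clusters, and its part in these absences was not tested.

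In base composition the set held more G and less T than shared sites. G made up 10.5% of its bases and T 34.2%, against 8.41% and 37.2% for shared sites. Parental-only sites differed from the shared sites of their own library in the same direction, with 8.66% G and 37.2% T against 6.81% and 39.1%. C made up 24.0% of KRT19 KO-only and 24.5% of shared sites in the *KRT19* KO cytoplasm. At 20 to 49 reads, sites without G lacked a parental cluster in 45.4% (42.1 to 48.6%), and sites with over 20% G in 70.3% (67.0 to 73.4%). At 500 reads or more the shares were 3 of 23 (4.54 to 32.1%) for the sites without G, 22.0% (19.4 to 24.8%) for those with up to 10% G and 18.9% (9.48 to 34.2%) for the 37 with over 20% G, with overlapping intervals. Parental sites of 20 to 49 reads had the same order, from 36.0% (32.9 to 39.2%) without G to 51.7% (46.7 to 56.6%) above 20% G. The last base was a G in 56.6% (55.4 to 57.9%) of KRT19 KO-only and 55.2% (54.1 to 56.3%) of shared sites, with overlapping intervals, and the base before the site was a G in 18.4% (17.5 to 19.4%) and 20.6% (19.8 to 21.5%), with intervals apart.

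The HNRNPK word occurred in 28.7% (27.6 to 29.9%) of the KRT19 KO-only sites, searched on the transcript strand of the cluster. Over all 14100 sites the share was 31.6%, and in shared sites 33.7% (32.7 to 34.8%), in parental-only sites 25.9% (24.3 to 27.6%). Shared sites of the parental cytoplasm, the counterpart of the last, held it in 32.7% (31.6 to 33.8%). At 20 to 49 reads the word was in 27.0% (25.5 to 28.5%) of KRT19 KO-only and 26.8% (25.1 to 28.5%) of shared sites, and in the parental cytoplasm in 23.4% (21.4 to 25.5%) of parental-only and 27.6% (25.97 to 29.35%) of shared sites. At 500 reads or more the word was in 41.1% (35.1 to 47.3%) and 48.1% (44.8 to 51.3%). CCC alone was in 39.97% (38.8 to 41.2%) of KRT19 KO-only and 43.2% (42.1 to 44.3%) of shared sites. Of 516 words of 5 nt that occurred in at least 200 sites, the 10 most raised in KRT19 KO-only over shared sites all held at least 1 G, and the 10 most lowered held none, with log2 ratios up to 0.88 and down to -0.59. At 20 to 49 reads, with 253 such words, 6 of the 10 most raised held a G and 4 did not, and the 10 most lowered again held none.

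Position along the 3'UTR did not set the sites apart. In the longest annotated 3'UTR that held them, 6043 of the 6064 could be placed. The median KRT19 KO-only site lay 1177 nt after the stop codon and 1566 nt before the 3'UTR end, in 3'UTRs with a median length of 3262 nt. Shared sites lay at 1190 and 1662 nt in 3'UTRs of 3343 nt. Within 100 nt of the 3'UTR end were 3.34% (2.92 to 3.83%) of KRT19 KO-only and 2.71% (2.38 to 3.09%) of shared sites, and within 100 nt of the stop codon 3.52% (3.09 to 4.02%) and 3.93% (3.52 to 4.38%). The sequence of 99.9% of the 6063 sites long enough to search had 1 exact placement in the genome, and 1 site had more, against 0 of 7911 shared sites and 13 of 2613 parental-only sites.

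Most genes of the set also held sites found in both cytoplasms. Of the 3180 genes, 2076 (65.3%) had a shared 3'UTR site of at least 20 reads as well, and 2801 (88.1%) had a parental cytoplasmic 3'UTR cluster of any size. Over all 4590 genes with a site, 3486 held a shared one, a larger share, since genes without a KRT19 KO-only site hold one by definition. How many of the 4590 had a parental cytoplasmic 3'UTR cluster was not counted. Of the 3180 genes, 204 with 240 sites entered through intronic parental clusters alone. These sites were 3.96% of the set and 1.70% of all 14100 sites. All 240 3'UTR sites of at least 20 reads in such genes were KRT19 KO-only, since only intronic parental clusters were there to overlap. The largest sites of that kind were in *CCDC91* with 402 reads in the *KRT19* KO cytoplasm, *NEU3*, the gene of a sialidase, with 296 reads, and *HOXB3*, a homeobox gene, with 292 reads. The *CCDC91* site had 11 reads in the *KRT19* KO nucleus, and none of the 3 had a cluster in the parental nucleus.

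A single KRT19 KO-only site was found in 1774 genes (55.8%), 2 to 4 in 1218 and 5 or more in 188. The most were in *CBX5*, which encodes the heterochromatin protein HP1 alpha, with 15 sites and 4358 reads. Its 3'UTR also held 26 shared sites, and outside the KRT19 KO-only sites it had 6205 reads in the *KRT19* KO cytoplasm and 2551 in the parental cytoplasm. *NUFIP2* had 13 KRT19 KO-only sites beside 10 shared ones. *PURB*, the gene of a single-strand nucleic acid binding protein, had 13 beside 16. *PHLDA1*, *ABL2*, which encodes a tyrosine kinase, and *PPM1A*, which encodes a protein phosphatase, had 12 each, beside 7, 18 and 13 shared sites. Outside the KRT19 KO-only sites, 3'UTR reads in the *KRT19* KO and the parental cytoplasm were 1414 and 944 for *PPM1A* and 14140 and 4364 for *PHLDA1*. These genes were selected on their *KRT19* KO clusters, and these values are given as a description.

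Gene groups were compared by the share of their sites that were KRT19 KO-only, beside 43.4% (42.6 to 44.2%) of 13975 sites in all 4590 genes. Of 17 lists, 14 had an interval that held this value. The lists lower than it were the Hippo pathway, which restrains growth through the coactivator YAP1, with 32 of 103 sites (31.1%, 23.0 to 40.6%), and hnRNP and poly-C binding proteins, with 32 of 101 (31.7%, 23.4 to 41.3%). The list above it was that of genes named ZNF, zinc finger proteins that mostly bind DNA, with 193 of 379 (50.9%, 45.9 to 55.9%). Sites of 1 gene share its mRNA, and the intervals leave this out. Counted by genes with at least 1 KRT19 KO-only site, against 69.3% of all 4590 genes, the Hippo list had 13 of 18 (72.2%) and thus lay on the other side, hnRNP and poly-C binding proteins had 14 of 22 (63.6%) and ZNF genes 110 of 155 (71.0%). By reads, KRT19 KO-only sites held 26.8% of the site reads of hnRNP and poly-C binding protein genes, against 26.2% over all genes. This list was thus not lower on that scale, but 3448 of its 5610 KRT19 KO-only reads lay in the largest *SYNCRIP* site alone. The Hippo list had 23.2% and ZNF genes 32.2%.

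**Figure D5:**
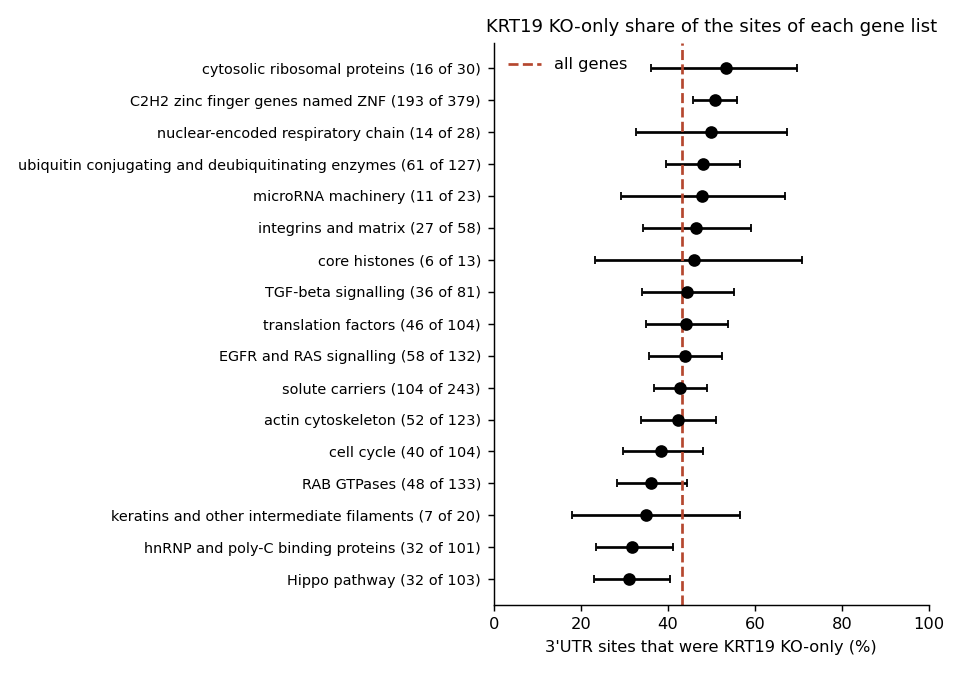
Share of the 3'UTR sites of 17 gene lists that were KRT19 KO-only (x axis, %), with the counts beside each name and 95% Wilson intervals as bars; the dashed line is the share over all genes, 43.4%. The intervals of the Hippo pathway and of hnRNP and poly-C binding proteins lie below the line, that of ZNF genes above it, and the other 14 cross it.

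For each list the 3 genes with the most reads in KRT19 KO-only sites are given with the reads of their largest site, in the *KRT19* KO cytoplasm unless another library is named. The first gene of the Hippo list was *MOB1A*, the gene of a kinase activator of the pathway, with 2185 reads in the *KRT19* KO cytoplasm, 56 in the *KRT19* KO nucleus and 20 in the parental nucleus, and the next was *YAP1*, with 1142 reads in the *KRT19* KO cytoplasm and 114 in the parental nucleus only. *TEAD1*, the gene of the transcription factor bound by YAP1, followed with 268 reads and 36 in the *KRT19* KO nucleus only. Among hnRNP and poly-C binding protein genes, *PTBP1*, a splicing repressor gene, had 411 reads in the *KRT19* KO cytoplasm and 40 in the *KRT19* KO nucleus only, and *HNRNPF* had 147 reads and no nuclear cluster. *HNRNPK* itself had 1 KRT19 KO-only site of 25 reads, 90 nt after the stop codon and without a nuclear cluster, beside 2 shared sites. In the ZNF list, *ZNF614* had 1102 reads at its largest site and *ZNF24* 745, and the largest site of *ZNF207* had 430 reads in the parental nucleus and no *KRT19* KO nuclear cluster.

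Cell cycle genes had 40 KRT19 KO-only sites of 104 (38.5%). Beside *CDK6*, the retinoblastoma family gene *RBL1* had a site of 903 reads 6 nt from a parental cluster of 16 reads, and *CCND1*, the gene of cyclin D1, had 7 such sites and 7 shared ones, the largest with 533 reads and 57 in the parental nucleus only. Growth factor signalling, the EGFR and RAS list, had 58 of 132 (43.9%), led by *NRAS*, *EREG*, the gene of the EGFR ligand epiregulin, with 787 reads, and *SPRED1*, an inhibitor of the RAS pathway, with 664. Both had small clusters in the parental nucleus only, of 14 and 25 reads. In the TGF-beta list, 36 of 81 sites (44.4%), the ligand gene *TGFB2* had 1745 reads and 9 in each nucleus, the receptor gene *BMPR2* 396 reads and the SMAD inhibitor gene *SKIL* 225.

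Translation factor genes had 46 of 104 sites (44.2%). *EIF2S1*, the gene of eIF2 alpha, had 1859 reads and no nuclear cluster, *EIF4EBP2*, an inhibitor of cap-dependent translation, had 1472 reads with 34 and 74 in the *KRT19* KO and parental nucleus, and *EIF2AK2*, the gene of the kinase PKR, had 1218 reads with 65 and 68. *EIF4E*, which encodes the cap-binding factor, had 2 sites of at least 20 reads, and 0 of them were KRT19 KO-only. Genes of cytosolic ribosomal proteins had few and small sites, 16 of 30 (53.3%), with 134 reads in *RPL28*, 112 in *RPL15* and 41 in *RPS23*. Nuclear-encoded respiratory chain genes had 14 of 28 sites, with 135 reads in *ATP5G3*, 94 in *NDUFS1* and 43 in *COX7A2L*. In the microRNA machinery, 11 of 23 sites (47.8%) were KRT19 KO-only, with 296 reads in *TNRC6B*, 174 in *TNRC6A* and 110 in *TNRC6C*.

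Among membrane and cytoskeletal groups, solute carriers had 104 of 243 sites (42.8%), led by the amino acid transporter gene *SLC38A2* with 9 sites, the largest of 1773 reads, then *SLC16A7* with 952 and *SLC7A5* with 244 reads. RAB GTPase genes, which direct vesicle traffic, had 48 of 133 (36.1%), with 1718 reads at the largest of 10 sites in *RAB5B* and 1363 in *RAB27B*. Actin cytoskeleton genes had 52 of 123 (42.3%), where *FSCN1*, the gene of the actin bundler fascin, had 443 and *PDLIM5* 111 reads beside the *CNN2* site. Integrins and matrix genes had 27 of 58 (46.6%), with 275 reads in *THBS1*, 252 in *CD44* and 228 in *ITGA6*. Keratins and other intermediate filament genes had 7 of 20 (35.0%), of 93 reads in *KRT80*, 70 in *LMNB2* and 39 in *KRT81*. *KRT18* and *KRT8*, the gene of the keratin with which K19 forms filaments, had no 3'UTR site of at least 20 reads.

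Ubiquitin conjugating and deubiquitinating enzymes had 61 of 127 sites (48.0%). *USP21* had 766 reads in the *KRT19* KO cytoplasm with 89 and 180 in the *KRT19* KO and parental nucleus, *UBE2W* had 360 and *UBE2K* 225. Core histone genes had 6 of 13 (46.2%), and *HIST1H2BD* held a site of 1323 reads 25 nt before its 3'UTR end, with 36 reads in the parental nucleus. *H3F3B* and *H2AFV*, genes of histone variants, had 194 and 91 reads. Of other genes the study names, *MDM2*, a ubiquitin ligase gene, had 1 KRT19 KO-only site of 73 reads among 5 sites, *MYC* 1 of 38 reads among 2, and *SRC*, a tyrosine kinase gene, 1 of 20 reads, which was its only site.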

How the data were processed

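PAR-CLIP clusters of the 4 libraries were analysed. The 17 RNA-seq samples were not analysed here. According to the methods of the study, the authors demultiplexed the reads with bcl2fastq (2.20.0 in the submitters' processing notes) and cutadapt, aligned them to hg19 and called clusters per library with PARalyzer within PARpipe. The submitters' build field names hg38 instead. The 20988 *KRT19* KO and 14942 parental cytoplasmic 3'UTR clusters of at least 10 reads on chromosomes were all equal to GRCh37 (hg19) at their coordinates. The authors deposited raw counts of reads, unique reads, conversion positions and T-to-C reads per cluster, without normalization. The parental cytoplasmic list held no cluster on unplaced sequences, against 221 to 269 in the others. Their fraction, score and log10 columns were not used.

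Overlap means at least 1 nt on the same chromosome and strand. Shares have 95% Wilson intervals and cover counting error only, and no test was run with 1 library of each condition. 3'UTR positions came from GENCODE mapped to GRCh37. Overlap, distances and read sums were checked by brute force on clusters drawn from the deposited lists (1500 of 1500 answers equal). Of 200 clusters removed from a copy of a list, 200 were found as lost. The word search equalled a letter-by-letter search in 2000 of 2000 cluster sequences. Members, lists and the rule for named sites were chosen with earlier results of these data known. That rule took the 12 sites with the most reads, the 6 genes with the most sites, the leading 4 sites seen in each combination of nuclei, 3 genes of each list, the leading 3 sites in genes with intronic parental clusters alone and genes named by the study. *SRSF1*, *CDK6* and *RAB7A* were singled out beside a parental cluster after their values were seen. A gene and a list that the rule covers are not reported here. Python 3.11.15, numpy 2.4.6, pandas 2.3.3, scipy 1.17.1 and matplotlib 3.10.9 were used. Alternatives changed the minimum reads, conversion positions, unique reads, overlap, gene criterion, motif and sites per gene.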

Additional observations from a re-analysis of the deposited data

How the results depend on the processing

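The choice of minimum reads moved the set most. With at least 10 reads there were 11237 KRT19 KO-only sites and with at least 50 there were 2591. The share of *KRT19* KO sites without a parental cluster was then 54.8% and 33.0%, and that of parental sites without a *KRT19* KO cluster 40.6% and 20.9%, so the former stayed the higher. When clusters within 50 nt counted as shared, the shares were 35.3% and 23.5%, and with at least 2 conversion positions the parental one was 29.0%. The share with a *KRT19* KO nuclear cluster was 27.4% at 50 reads, 23.3% within 50 nt and 22.1% with 1 site per gene, and that with a parental nuclear cluster 25.2%, 22.3% and 20.9%. The word was in 31.1% of sites of 50 reads, 31.3% with 1 site per gene, 32.7% with 10 nt added on either side, and CCC alone in 39.97%. The T-to-C share was 51.4% at 50 reads and 52.7% without the largest site. Of the sites searched, 85.1% had 1 placement by the middle 20 nt alone. Of 35 alternatives, 13 stayed within 1.5 times the count or within the interval of the share. No paired analysis was possible because each condition has 1 PAR-CLIP library, and the numbered RNA-seq replicates were not analysed here. No replicate could be left out. The part of depth was not tested, and absence of a listed cluster does not show absence of binding.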
